A study of Mus musculus with 16 samples.

Results

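The MHC class II structural genes H2-Ab1, H2-Aa and H2-Eb1 were followed through the dendritic cell lineage by H3K27ac, the acetylated histone mark of promoters and enhancers in use. They were represented by every listed region that overlaps the 80 kb from 34385000 to 34465000 of chromosome 17 (build mm9), set around these 3 genes and the sequence between them. This gave 48 of 273958 regions in the 4 deposited lists, with 10 of 60816 in the list of CDP and MPP, 15 of 76865 in that of cDC and CDP, 10 of 69958 in that of pDC and CDP, and 13 of 66319 in that of cDC and pDC. The window is set by position, and it was chosen with earlier results of these data known. The cells were sorted C57BL/6 mouse cells without any other stated genotype or treatment, as classical dendritic cells (cDC), plasmacytoid dendritic cells (pDC), common dendritic cell progenitors (CDP) and multipotent progenitors (MPP). Each cell type had 2 H3K27ac libraries, and the labels do not say whether they came from separate animals, so the spread between them may be technical. Neither age nor sex of the mice is stated in the labels. Values are the authors' scaled signals, which are comparable within a list and not between lists, and the read depth is unknown. A higher signal of a sorted population cannot be told apart from a larger share of its cells carrying the mark.

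H2-Aa and H2-Ab1 encode the alpha and beta chain of I-A, the class II molecule that presents peptides to CD4+ T cells in C57BL/6 mice. H2-Eb1 encodes the beta chain of I-E, whose partner gene H2-Ea is defective in this strain, so that I-E is not displayed. Class II promoters carry an upstream X box and Y box, bound by RFX, CREB and NF-Y, and these factors recruit the transactivator CIITA, which brings histone acetyltransferases. cDC are known for strong class II display and pDC for less of it, while early progenitors have little. In the RefSeq annotation of GRCm38.p6 the genes follow each other along the chromosome as H2-Ob, the lncRNA gene Gm20506, H2-Ab1, H2-Aa, H2-Eb1, H2-Eb2 and the transcribed pseudogene H2-Ea. Gene bounds in mm9 were not used here, so a region is given by its position and is not assigned to a single gene.

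The sequence before the start of the members is shown because the window was set around these genes. The RefSeq promoter table (GRCm38.p6) matched 4 of the 5 class II genes looked up, H2-Aa and H2-Eb1 among the members. Each line gives the 250 bases before the start of the gene, 5′ to 3′ on its own strand, and capitals mark GCAAC, a core of the X box, and ATTGG, the core of the Y box and the reverse complement of CCAAT. H2-Aa lies on the minus strand (chr17:34287824-34288073) and H2-Eb1 on the plus strand (chr17:34305617-34305866). These positions belong to GRCm38.p6 and cannot be laid over the mm9 positions of the regions.
H2-Aa: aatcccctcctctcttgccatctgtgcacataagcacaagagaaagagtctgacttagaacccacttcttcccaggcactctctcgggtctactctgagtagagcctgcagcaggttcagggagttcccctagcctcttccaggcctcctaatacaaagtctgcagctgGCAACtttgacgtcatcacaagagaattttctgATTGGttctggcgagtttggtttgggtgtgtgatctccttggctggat
H2-Eb1: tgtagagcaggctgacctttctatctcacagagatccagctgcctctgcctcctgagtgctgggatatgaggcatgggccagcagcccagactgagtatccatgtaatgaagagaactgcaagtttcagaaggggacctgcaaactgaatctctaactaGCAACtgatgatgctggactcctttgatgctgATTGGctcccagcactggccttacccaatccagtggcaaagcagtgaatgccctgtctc

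GCAAC began 81 bases before the start of H2-Aa and 91 before that of H2-Eb1, and ATTGG began 33 and 32 bases further on. The neighbouring gene H2-Ob, which encodes the beta chain of the class II-like inhibitor H2-O, had the same pair 30 bases apart on the plus strand (chr17:34238810-34238857), shown here for comparison.
H2-Ob: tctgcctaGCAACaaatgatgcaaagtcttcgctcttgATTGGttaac

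H2-Eb2, a further class II beta gene, had the pair 32 bases apart. Searched on both strands of 250 bases, GCAAC was in 29.9% and ATTGG in 33.8% of 32851 promoter entries. The pair on the same strand at a distance of 30 to 33 bases was in 57 entries, or 0.174%. That range was taken from these 4 genes, which are therefore among the 57. A match describes the letters and does not show that a factor is bound.

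The summed H3K27ac signal of the window was higher in CDP than in MPP, far higher in cDC than in CDP or pDC, and least different between pDC and CDP. Summed over the listed regions, CDP had 5891 ± 322 against 1383 ± 888 in MPP, or 4.26-fold more. cDC had 111786 ± 30040 against 10896 ± 1584 in CDP, or 10.3-fold more, and 109843 ± 29930 against 20766 ± 8831 in pDC, or 5.29-fold more. pDC had 15008 ± 6302 against 7418 ± 976 in CDP, or 2.02-fold more. All are means ± SD of 2 libraries in the units of their own list. In each of the 4 sums, both libraries of the first-named cell type lay above both of the other. An exact permutation test (two-sided) gave p = 0.333 for each sum, which is the smallest value that pairs of libraries allow.

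**Figure D1:**
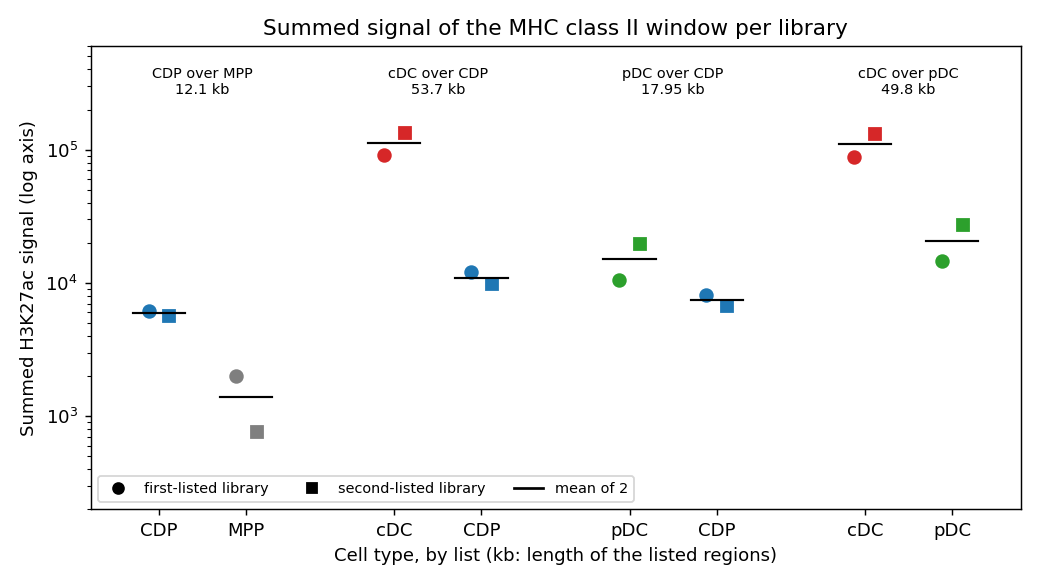
H3K27ac signal summed over the listed regions of the window, per library (log axis), with the first-named cell type of each list on the left, circles and squares for the first- and second-listed library and a line for their mean. The cDC libraries sit between 88676 and 133024, above all CDP and pDC libraries of their lists, and the lists cover 12.1, 53.7, 17.95 and 49.8 kb.

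Regions were also tested singly with limma on log2(signal + 1) over every region of a list, and a region was counted as higher at a Benjamini-Hochberg adjusted p under 0.05. The listed regions were called by the authors from the same libraries, so these p-values describe spread and are not independent evidence of a difference. As a scale for all counts below, making the autosomal totals of the libraries equal moved the median log2 difference of a list from -0.11 to 0.018 for CDP over MPP and from 0.029 to -0.27 for pDC over CDP. For cDC over CDP it moved from -0.19 to -0.090, and for cDC over pDC from -0.22 to 0.26.

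**Figure D2:**
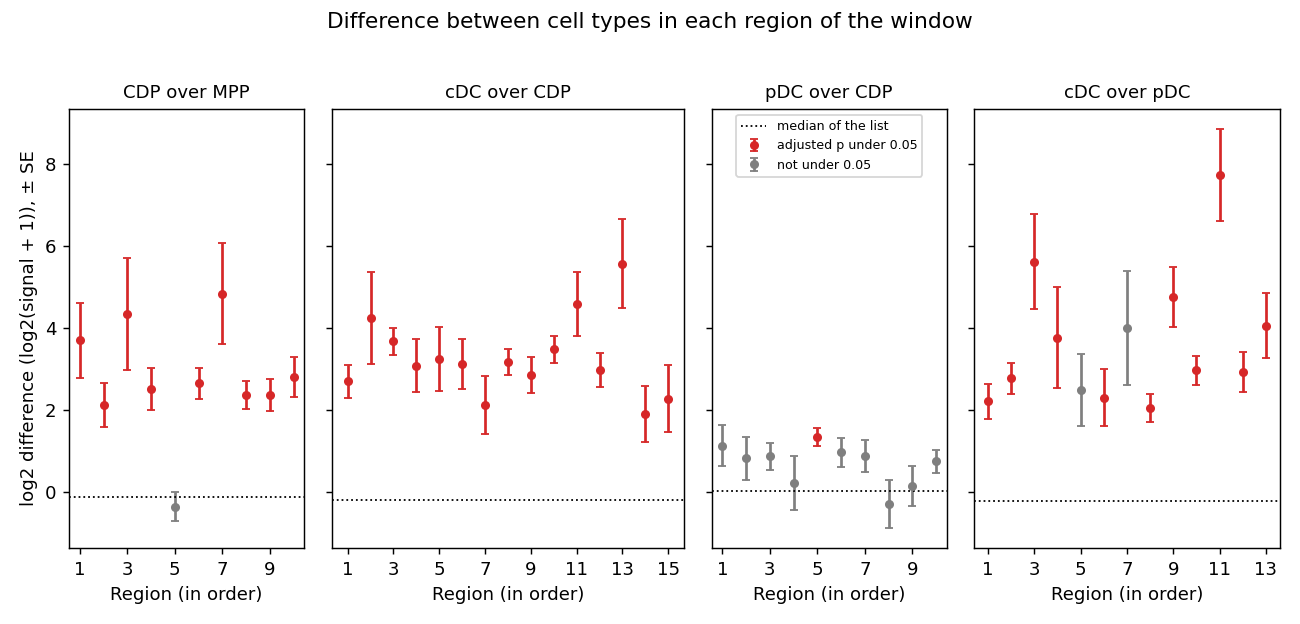
Limma log2 difference on log2(signal + 1) with its SE for each region of the window, numbered in order along the chromosome, in the 4 comparisons, with a dotted line at the median of the list. Differences run from 1.90 to 5.56 for cDC over CDP and from -0.29 to 1.34 for pDC over CDP.

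In CDP set against MPP, the signal was higher at separate short elements that covered a small share of the window. Of the 10 regions, 9 were higher in CDP by limma, against 8.42% of all regions of the list, and none was lower. The same 9 had both CDP libraries above both MPP libraries, against 26.8% of the list. The regions were 0.3 to 2.45 kb long and covered 12.1 kb, or 15.1%, of the window. Their median log2 difference was 2.58, against -0.11 over all regions of the list.

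The strongest element by signal lay from 34423551 to 34425350 and had 1247 and 1263 in CDP cells, against 342 and 116 in MPP, or 5.46-fold more. Its limma log2 difference was 2.65 ± 0.39 (SE), with an adjusted p of 7.54e-05. The rightmost region of this list in the window, 34441351 to 34443800, had 1038 and 1275 in CDP cells, against 385 and 70 in MPP. The element from 34398801 to 34400950, in the left part of the window, had 894 and 988 in CDP cells, against 396 and 68 in MPP. At these 3 elements the CDP libraries lay closer to each other than the MPP libraries did, and the second-listed MPP library was the lowest of all.

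Between the outer elements, 34429551 to 34431550 had 1179 and 744 in CDP cells, against 236 and 138 in MPP. Its neighbour from 34432601 to 34434150 had 923 and 756 in CDP cells, against 266 and 98 in MPP. Both passed the test with log2 differences of 2.37 ± 0.35 and 2.36 ± 0.39. The largest ratio among regions with signal in every library was at 34394201 to 34394550, where CDP had 137 and 93 against 6 and 10 in MPP, or 12.9-fold more. The regions from 34398151 to 34398450 and from 34428201 to 34428600 were listed at 0 in the second-listed MPP library, with 24 and 29 in the first. CDP had 124 and 80 in the first of these regions and 162 and 149 in the second.

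A single region of the window went the other way. From 34401451 to 34402100, CDP had 203 and 188 against 297 and 210 in MPP. Its log2 difference of -0.35 ± 0.36 had an adjusted p of 0.545 by limma, and the libraries did not overlap. It lies 0.5 kb beyond the end of an element that was higher in CDP. The summed difference of CDP over MPP, 2.09 on the log2 scale, became 2.96 when the first-listed MPP library was left out and 1.55 when the second was. The log2 ratio of the second-listed to the first-listed MPP library had a median of -1.49 in the window and -0.315 over the list. Without the first-listed CDP library 5 regions were called, and a fit without a variance trend also called 5. The calls at 34394201, 34398151 and 34428201 were lost without either CDP library, and those at 34398151 and 34398801 without the second-listed MPP library.

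**Figure D3:**
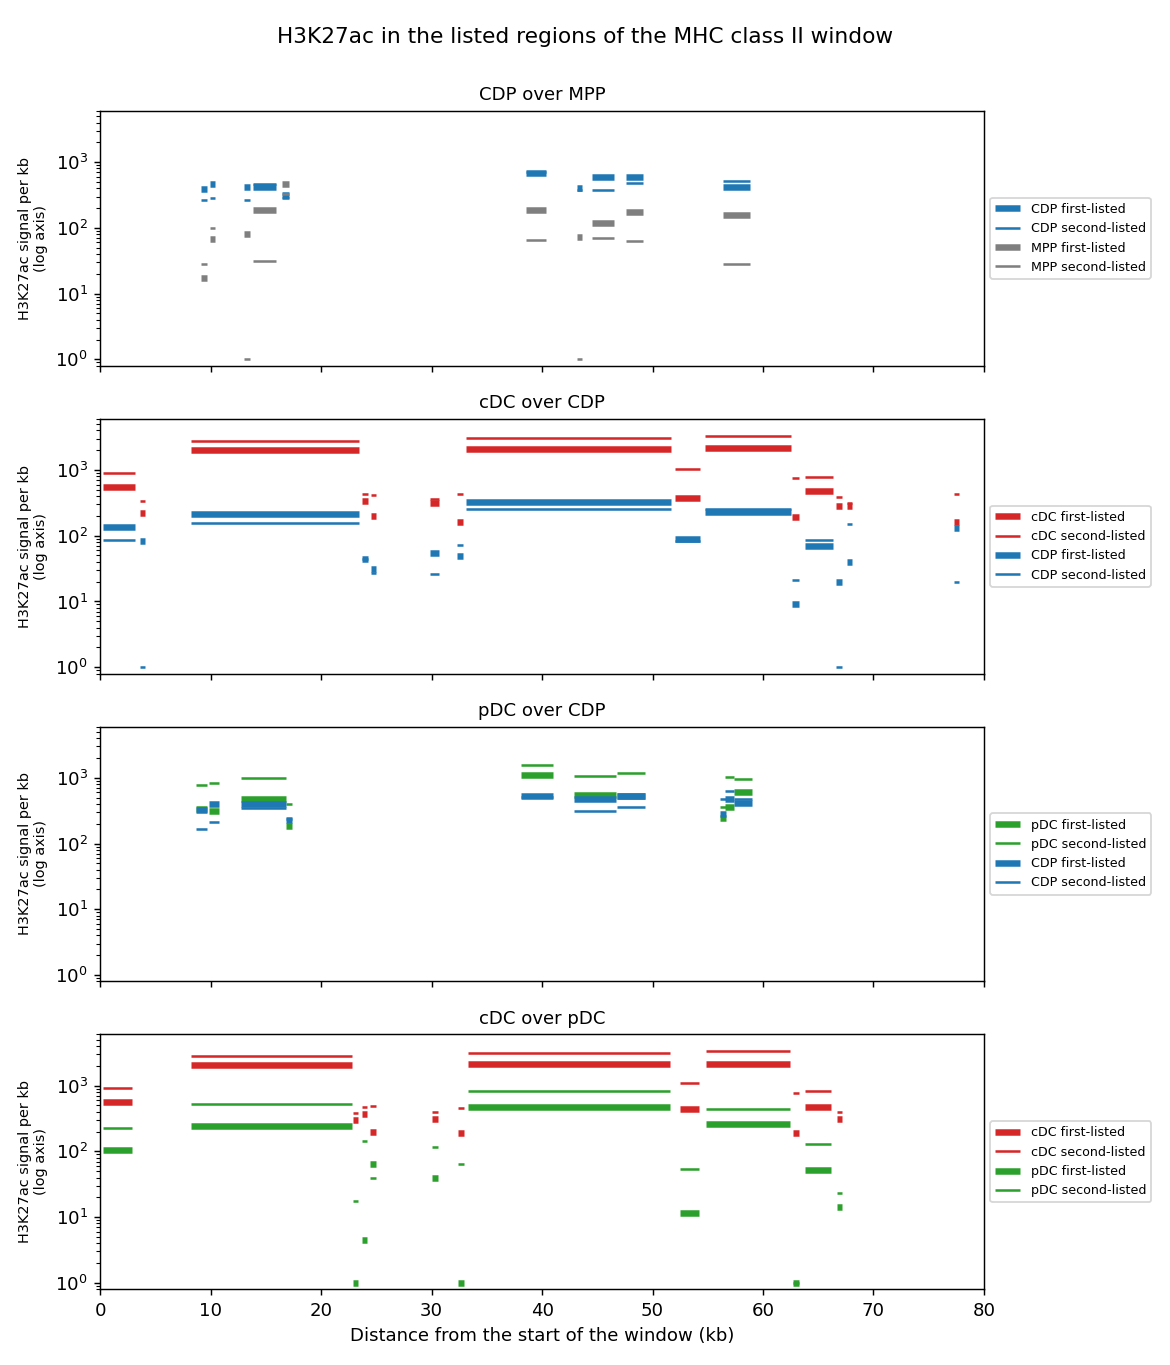
H3K27ac signal per kb (log axis) in each listed region against the distance from the start of the window in kb, in the 4 lists, with thick lines for first-listed and thin lines for second-listed libraries; values under 1 are drawn at 1 and regions under 0.5 kb are widened to 0.5 kb. The short elements of the lists with CDP and MPP or pDC lie within the 3 long regions of the lists with cDC.

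In cDC set against CDP, the listed regions ran over most of the window and every one was higher in cDC. All 15 listed regions were higher in cDC by limma, against 7.64% of the list, and in all 15 both cDC libraries lay above both CDP libraries, against 22.0% of the list. They covered 53.7 kb, or 67.1% of the window, and their median log2 difference was 3.11, against -0.19 over the list. Per 1000000 units of listed signal, the window held 2109 and 2211 in cDC cells, against 235 and 169 in CDP. On this scale the cDC libraries were nearly equal, although the second-listed had 1.47 times the deposited signal of the first.

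Most of the cDC signal lay in 3 long regions, which together held 93.9% of it. The region from 34418151 to 34436650 was the longest of all 76865 regions of its list, at 18.5 kb, and the 3rd by mean signal. It had 39109 and 56526 in cDC cells, against 5983 and 4633 in CDP, or 9.01-fold more. The region from 34393201 to 34408400, of 15.2 kb, was the 3rd longest of the list and had 30037 and 41869 in cDC cells, against 3281 and 2366 in CDP, or 12.7-fold more. The region from 34439751 to 34447500, of 7.75 kb, had 16654 and 25754 in cDC cells, against 1770 and 1945 in CDP, or 11.4-fold more.

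Their limma log2 differences were 3.16 ± 0.32, 3.67 ± 0.32 and 3.48 ± 0.33, with adjusted p-values of 1.11e-08, 1.24e-09 and 4.40e-09. Each kept an adjusted p under 0.05 without any 1 of the 4 libraries. Of the smaller regions, 34448801 to 34451350 had 1199 and 2020 in cDC cells, against 177 and 222 in CDP, and 34385251 to 34388100, at the left edge of the window, had 1569 and 2541 against 386 and 244. At 34437051 to 34439300, between the long regions, cDC had 851 and 2300 against 197 and 188 in CDP. This was 700.2 per kb in cDC, against 2585 and 2736 per kb in the long regions to its left and right.

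Some short regions were almost without signal in CDP. From 34447651 to 34448300 cDC had 123 and 487 against 6 and 14 in CDP, or 27.8-fold more with a limma log2 difference of 4.59 ± 0.78. From 34451651 to 34452100 cDC had 128 and 172 against 9 and 0 in CDP. The smallest ratios of mean signal were at the right end, where 34452601 to 34453050 had 128 and 139 in cDC cells, against 18 and 67 in CDP, and 34462351 to 34462750 had 65 and 170 against 53 and 8. In the last of these the higher CDP library came close to the lower cDC library. Both were called by limma with adjusted p-values of 0.0428 and 0.0420, and with equal autosomal totals 12 of the 15 regions of the window were called. With those totals 8456 of the 76865 regions of the list were called higher, against 5872 in the main fit.

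In pDC set against CDP, differences were small and were larger in the second-listed pDC library. Of the 10 regions, 1 was higher in pDC by limma, against 25.2% of the list, and none was lower. In made-up signals of this list, with 200 of 69958 regions changed at random, the fit called 17.5% of those with a log2 change of 1. Far more of the real list was called, so this share does not carry over to the window. A region without a call may still differ. Both pDC libraries lay above both CDP libraries in 6 of the 10, against 39.7% of the list. The median log2 difference of the 10 regions was 0.85, against 0.029 over the list. Per 1000000 units of listed signal, the window held 192.5 and 320.5 in pDC cells, against 186.1 and 133.7 in CDP. On this scale the first-listed pDC library was nearly equal to the first-listed CDP library. With equal autosomal totals the summed log2 difference of pDC over CDP was 0.68, against 1.02 as deposited. The listed regions covered 17.95 kb, so 35.75 kb of the stretches that were higher in cDC than CDP had no region in the list of pDC and CDP, which does not show equal signal there.

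The called region lay from 34423051 to 34425950 and had 3217 and 4470 in pDC cells, against 1522 and 1471 in CDP, or 2.57-fold more. Its limma log2 difference was 1.34 ± 0.21, with an adjusted p of 0.00277. The difference ran from 1.10 to 1.58 when any 1 of the 4 libraries was left out. It spans the element from 34423551 to 34425350, the strongest by signal in the list of CDP and MPP. The lists share the CDP libraries, so CDP is placed by the same data in both.

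At the larger elements beside it, the first-listed pDC library lay nearer to CDP than to the second-listed pDC library. From 34397751 to 34401850, pDC had 1972 and 4012 against 1625 and 1441 in CDP (adjusted p of 0.0669 by limma). From 34427901 to 34431650, pDC had 2049 and 3950 against 1802 and 1172 in CDP (adjusted p of 0.0605). From 34431751 to 34434350, pDC had 1387 and 3067 against 1355 and 927 in CDP. At 34393651 to 34394650 the values were 332 and 788 in pDC cells, against 326 and 166 in CDP, so the groups barely separated. Towards the right, 34442401 to 34444000 had 958 and 1515 in pDC cells, against 671 and 768 in CDP. At 34394801 to 34395750 the libraries overlapped, with 301 and 786 in pDC cells, against 375 and 202 in CDP.

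In all 10 regions the second-listed pDC library exceeded the first. The median of its log2 ratio to the first was 1.05 in the window, against 0.20 over all regions of the list. A larger offset was found in 9.33% of the list. In the list of cDC and pDC the median offset in the window was 1.12, against 0.17 over the list and 0.27 in the 8551 regions where cDC was at least 2-fold higher with libraries that did not overlap. The summed difference of pDC over CDP was 1.02 on the log2 scale with all libraries and 0.51 without the second-listed pDC library, and 2 regions were called without the first-listed. A fit to regions of at least 500 bp called 4 of 8, and 14918 of 40543 over the list.

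**Figure D4:**
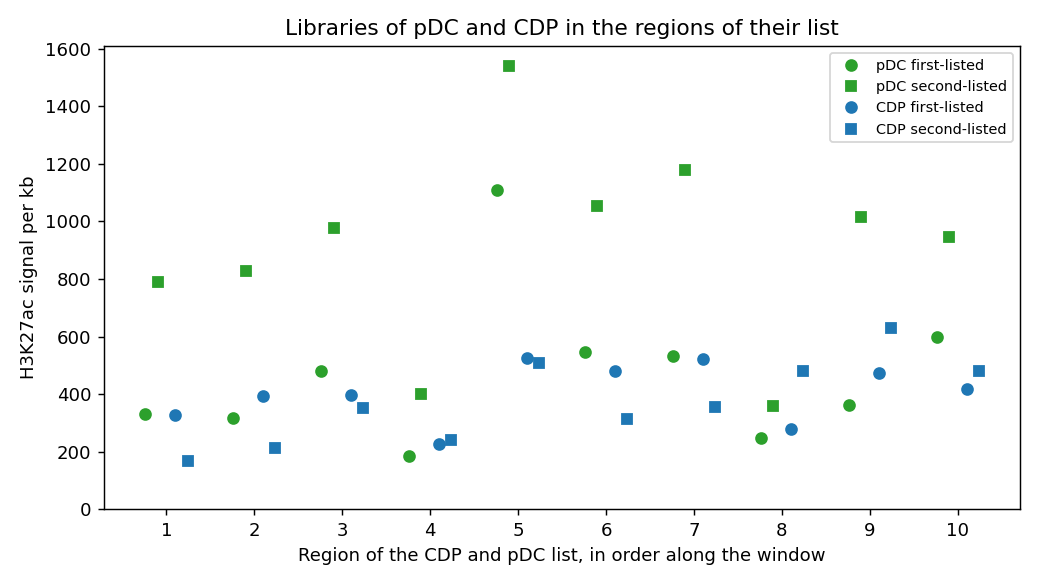
H3K27ac signal per kb of the 2 pDC and 2 CDP libraries in the 10 regions of their list, in order along the window. The second-listed pDC library lies above the first in all 10 regions, and region 5, from 34423051 to 34425950, is the only one called by limma.

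Compared directly, cDC had more H3K27ac than pDC in every listed region of the window. Of the 13 regions, 11 were higher in cDC by limma, against 9.32% of the list, and none was lower. In all 13, both cDC libraries lay above both pDC libraries, against 26.0% of the list. The median log2 difference was 2.97, against -0.22 over the list. Per 1000000 units of listed signal the window held 2141 and 2257 in cDC cells, against 222 and 378 in pDC. Without the second-listed cDC library, and likewise without the first-listed pDC library, 7 regions were called.

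The 3 long regions differed unequally. From 34418251 to 34436550 cDC had 38726 and 56438 against 8594 and 14870 in pDC, or 4.06-fold more. From 34393251 to 34407750 cDC had 29544 and 41503 against 3491 and 7569 in pDC, or 6.42-fold more. From 34439801 to 34447450 cDC had 16316 and 25464 against 1975 and 3416 in pDC, or 7.75-fold more. Their limma log2 differences were 2.05 ± 0.35, 2.77 ± 0.39 and 2.97 ± 0.35, with adjusted p-values of 0.00231, 9.60e-04 and 4.82e-04. The difference between the 3 regions was not tested. The long region with the smallest difference holds the element that was called higher in pDC than CDP, and a link between them was not tested.

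The steepest contrasts lay at some of the regions between and beside the long regions, where pDC had almost no signal. Others there were less steep, such as 34408701 to 34409150 at 5.63-fold and 34415101 to 34415500 at 4.38-fold. At 34437451 to 34439200 cDC had 758 and 1908 against 20 and 94 in pDC, or 23.0-fold more with a limma log2 difference of 4.75 ± 0.72. From 34447751 to 34448300 cDC had 104 and 425, and pDC was listed at 0 in both libraries. From 34407901 to 34408300 cDC had 121 and 155 against 0 and 7 in pDC. Towards the edges, 34448801 to 34451200 had 1139 and 1989 in cDC cells, against 124 and 310 in pDC, and 34385251 to 34387900 had 1496 and 2432 against 281 and 605. The 2 regions that were not called, from 34409601 to 34409800 and from 34417551 to 34417750, were 0.2 kb long each and had adjusted p-values of 0.0600 and 0.0557. The first had 39 and 98 in cDC cells, against 13 and 8 in pDC, and the second had 38 and 90 against 0 and 13. The named regions at 34385251, 34393251, 34407901 and 34418251 lost their call without at least 1 of the 4 libraries.

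The short regions of 2 lists were nested in the long regions of the others, and the lists share cell types and so libraries. Each of the 10 regions of the CDP and MPP list, and each of the 10 of the pDC and CDP list, lay inside a single region of the cDC and CDP list and inside a single region of the cDC and pDC list. All 20 fell in the 3 long regions. The left long region held 5 of the MPP and CDP elements, the middle held 4 and the right held 1. In total, separate pieces adding up to 11.75 kb, or 14.7% of the window, were covered in all 4 lists, and 26.3 kb was covered in none. The longest uncovered part ran for 9.3 kb from 34453051 to 34462350, and the next for 4.9 kb from 34409951 to 34414850, between the left and middle long regions.

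The window stood apart from the rest of the lists in cDC. All listed regions outside it were summed over tiles of 80 kb, by the midpoint of each region, and no test was attached. None of 12582 tiles of the cDC and CDP list had a larger mean cDC sum than the window, nor did any of the 12881 tiles of the cDC and pDC list. The mean difference of cDC over CDP was 100890 in the window, and the next largest in a tile was 20557. That of cDC over pDC was 89078, and the next largest was 24629. In each list 5 tiles reached at least 50% of the cDC sum of the window, and the largest ratio among them was 1.23-fold over CDP and 1.51-fold over pDC. The bounds of the window were set around the genes, while the tiles follow a fixed grid that can divide a stretch of signal.

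**Figure D5:**
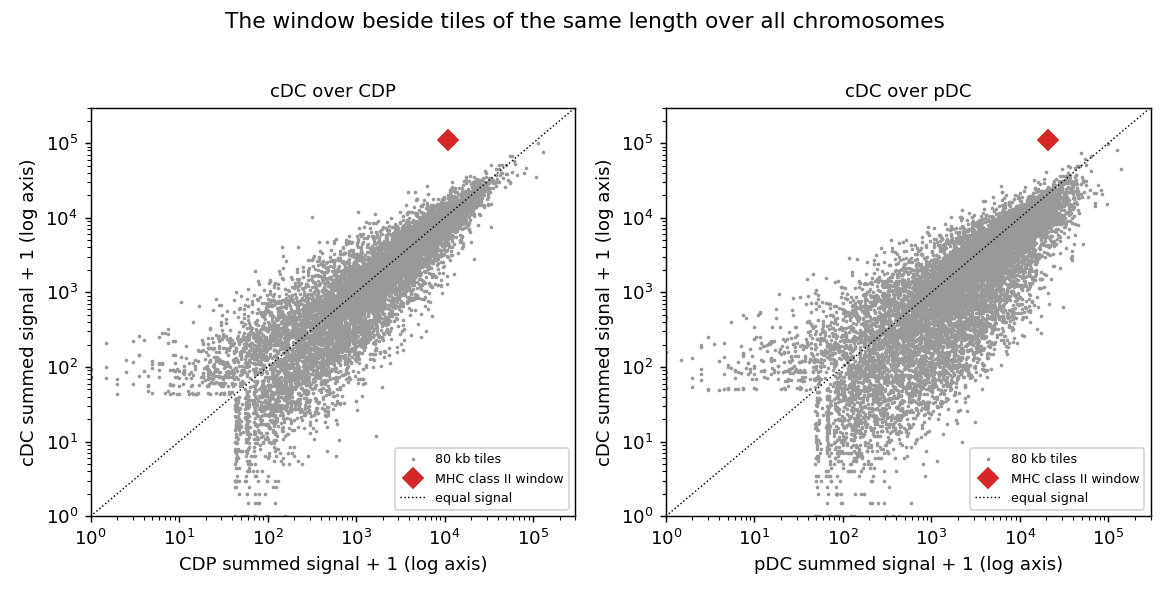
Mean summed H3K27ac signal of cDC against CDP (left) and against pDC (right) in tiles of 80 kb over all chromosomes (grey, both axes log, signal + 1), with the MHC class II window as a diamond and a dotted line of equal signal. The window has the highest cDC sum in both lists, at 111786 and 109843.

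In the other cell types the window was not at the top. By mean signal of CDP it ranked 1247 in the cDC and CDP list, after 1246 tiles, and by mean signal of pDC it ranked 482 in the cDC and pDC list. By the difference of pDC over CDP it ranked 534 of the tiles, with 7590 against 71274 in the first. By the difference of CDP over MPP it ranked 85, with 4508 against 17194 in the first, and by mean MPP signal it ranked 7280. Ranks rest on the length listed within a tile, which differs between lists.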

How the data were processed

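H3K27ac libraries of 4 cell types entered as 4 deposited lists of differing regions. The submitters' processing notes name BWA 0.6.1, an aligner, and the build mm9; the series title names THOR for differential peak calling, and the labels do not state its settings. The labels name 2 suppliers for the H3K27ac antibody. The authors' deposited lists give, per region, a direction, a scaled signal for each of 2 libraries per cell type and −log10 of a p-value; a last unnamed column was not used. Groups follow the order in the list names. This order was checked on regions whose bounds coincide between lists: for the same cell type and place the log2 ratio had an SD of 0.0587 or less, and for all other pairs 0.456 or more. The labels number the libraries of a cell type, but the values in the lists carry no number, so libraries are called first- and second-listed. The input and RNA samples were not used, nor was an annotation of mm9, so cell type markers and a list of other class II pathway genes were not measured.

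Limma 3.58.1 (R 4.3.3) was fitted with a variance trend to log2(signal + 1) of all regions of a list. Benjamini-Hochberg adjustment ran over the list, with a threshold of 0.05. The code was first checked on made-up signals with 200 changed regions in each list. A log2 change of 1 was called in 15.5% of them for CDP over MPP and 0.0% for cDC over CDP. For pDC over CDP it was called in 17.5%, and for cDC over pDC in 1.0%. A change of 3 was called in 86.5% to 89.0%. At a change of 1, unchanged regions were also called, 13 for CDP over MPP, 0 for cDC over CDP, 9 for pDC over CDP and 1 for cDC over pDC. Where there were any, these false calls were a larger share of all calls than the threshold of 0.05. At a change of 3 there were 6 to 11 false calls. Few regions were changed, so these shares do not carry over to the real lists. Fold values of regions are ratios of group means + 1, and those of the window are ratios of summed signals. Regions named in the text are the 5 of highest mean signal and, in each direction, the 3 of largest ratio in each list, with further regions added after their values were seen. The window, members and lists were chosen with earlier results of these data known. Tables were handled in Python 3.11.15 with pandas 2.3.3, and positions are 1-based.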

Additional observations from a re-analysis of the deposited data

How the results depend on the processing

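Alternatives were other pseudocounts, equal autosomal totals, minimum signal or length, no variance trend, the deposited p-value, the overlap with the window, bin size and leaving out each library, with a lone library then assumed to vary like the others. The window sums kept their direction under the alternatives run on them, which left out the variance trend and bin size. With equal autosomal totals the log2 ratio of the sum fell from 1.02 to 0.68 for pDC over CDP. It rose from 2.09 to 2.30 for CDP over MPP, from 3.36 to 3.42 for cDC over CDP and from 2.40 to 2.87 for cDC over pDC. Named regions that were called kept theirs under the other pseudocounts, equal totals, minimum signal, no variance trend and each library left out, and those of 500 bp or more also under minimum length. Counts changed by over 1.5 times for CDP over MPP, with 5 called without a variance trend and 5 at 500 bp or more; for cDC over CDP with 9, and for cDC over pDC with 7, at that length, where only 6, 9 and 7 regions were left to test. Over those 3 lists, 4748 of 34707, 4751 of 41137 and 5058 of 39373 regions were called higher at that length. Without a variance trend, 2994 of 60816 were called higher for CDP over MPP. For pDC over CDP, 2 of 10 regions were called with a pseudocount of 5, against 18467 of 69958 over the list. At 500 bp or more, 4 of 8 were called, against 14918 of 40543 over the list. At a deposited −log10 p of at least 10 there were 7, without a share of the list to set beside them. Leaving out a library gave log2 ratios of the window sum of 1.55 to 2.96 for CDP over MPP and 0.51 to 1.39 for pDC over CDP. It gave 5 to 8 calls for CDP over MPP, 1 to 2 for pDC over CDP and 7 to 11 for cDC over pDC. The region from 34441301 to 34441450, not called in pDC over CDP, had log2 differences of -0.675 to 0.088 with a library left out. The cause of these changes was not tested, apart from the number of regions left. Equal autosomal totals left 8, 12, 1 and 13 calls for CDP over MPP, cDC over CDP, pDC over CDP and cDC over pDC. Over the whole lists, 7105, 8456, 15790 and 18385 regions were then called higher, in the same order. The main fit had called 5118, 5872, 17599 and 6178 of them, so the list of cDC and pDC gained many calls outside the window too. A minimum mean signal of 20 removed no region. No paired analysis was possible because the values carry no replicate numbers. Read depth is unknown, so counting error cannot be given.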

Other observations

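The window was also divided into bins of 5 kb, with the signal of a region shared evenly along its length, so neighbouring bins within a long region repeat its ratio. For cDC over CDP the ratio ran from 3.85 in the last bin, which holds 0.4 kb of listed regions, to 12.7 in the bins of the left long region. Both cDC libraries lay above both CDP libraries in 15 of 15 bins with regions and above both pDC libraries in 13 of 13. The same held for every region of these lists, so these bin counts were fixed in advance and add nothing to the regions. Both CDP libraries lay above both MPP libraries in 7 of 7 bins, and both pDC libraries above both CDP libraries in 5 of 7.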
